A study of Mus musculus with 11 samples.

Results

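The genes described here are the 8 that write, maintain or remove methyl groups on cytosine in mouse DNA: the methyltransferases Dnmt1, Dnmt3a and Dnmt3b, the hemimethylation readers Uhrf1 and Uhrf2, and the dioxygenases Tet1, Tet2 and Tet3. They were taken by name, all 8 symbols were found among the 22208 protein-coding genes of the annotation on chromosomes 1-19 and X, and the gene body with 10 kb on each side was examined on the mouse assembly mm9. PU.1 occupancy was measured by ChIP-Seq, which sequences the DNA recovered with an antibody against a DNA-bound protein, in MEL cells and in ES-EP. MEL cells are a murine erythroleukemia line obtained with Friend virus, used here as 1 clone that stably carries a GATA-1/ER fusion, and ES-EP are erythroid progenitors grown from mouse embryonic stem cells in a medium with EPO, SCF, IGF-1 and dexamethasone. A polyclonal PU.1 antibody was used on 2 chromatin preparations of each cell type, which gave 4 ChIP libraries titled A1, A2, B1 and B2, beside 1 input library of MEL cells and 2 of ES-EP. The titles do not say which part of the name is the preparation, and the letter was taken as the preparation and the number as a library of it. On this reading, with the reads of its libraries added up, n = 2 preparations per cell type. Both groups are single cell populations in culture, no mRNA and no DNA methylation was measured in these libraries, and the identity of the cells could not be checked against marker genes.

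DNA methylation in mammals sits mainly on CpG dinucleotides and is copied after replication by Dnmt1, which Uhrf1 brings to hemimethylated DNA. Dnmt3a and Dnmt3b set new methylation, and the Tet enzymes oxidise 5-methylcytosine, which leads to its removal. In blood cells Dnmt3a and Tet2 are known as regulators of stem and progenitor cells that are often mutated in myeloid disease, and PU.1 is an Ets family factor of myeloid and lymphoid cells whose overexpression is linked to erythroleukemia.

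On placed chromosomes MEL A and B held 5697937 and 6987141 reads, ES-EP A and B 6284725 and 7095855, and the inputs 4278560 (MEL) and 7488885 (ES-EP). The preparations were not alike at promoters. Over the transcription start sites (TSSs) of all protein-coding genes, the mean density of reads relative to the genome was 5.52 in MEL A, 9.73 in MEL B, 13.5 in ES-EP A and 8 in ES-EP B. The inputs were also above the genome there, at 3.13 in MEL cells and 6.62 in ES-EP. Over the TSS windows of the 8 genes the same density was 6.86 in MEL A, 13.8 in MEL B, 12.9 in ES-EP A and 8.1 in ES-EP B, and the inputs stood closer together, at 5.3 (MEL) and 6.34 (ES-EP). The inputs of both cell types were thus high at these promoters, and their part in the number of sites called was not tested.

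A site was called where a 500 bp window of a fixed grid held more ChIP reads of both preparations than the depth-scaled input of the same cell type allowed (one-sided Poisson test, adjusted p below 0.05 over all windows). Neighbouring windows were joined and the sites of both cell types were merged, so that a merged site can be called in 1 or both. Of the 1386 windows over the 8 genes, 19 were called in MEL cells and 10 in ES-EP, against 0.476% and 0.333% of all windows of the genome. They formed 20 merged sites. A promoter site, with its summit within 2 kb of a TSS of the gene, was called in MEL cells at 6 of the 8 genes (Dnmt1, Uhrf1, Uhrf2, Dnmt3a, Dnmt3b and Tet2) and in ES-EP at 3 (Uhrf1, Uhrf2 and Tet2), where 38.7% and 22.9% of all protein-coding genes had one. With the expected reads taken from 10 kb of input and the genome mean alone, which ignores input at the site itself, ES-EP had a promoter site at 7 of the 8 genes and MEL cells at 6, beside 55.6% and 54.3% of all genes. The 3 ES-EP genes also depended on the grid, since with windows moved by 250 bp Uhrf2 was no longer called and Dnmt1 and Dnmt3b were. At 3 of the 8 genes the promoter was called in both cell types, as it was at 18.6% of all genes. A gene with more TSSs can hold a promoter site in more places. The 8 genes have 33 distinct TSSs, 13 of them at Dnmt3a, and the 22208 genes have 45993. The shares of all genes were not adjusted for this, so they show no preference for these promoters. Tet1 and Tet3 had no promoter site in either cell type under the main settings. With the 10 kb input, and from ES-EP A alone, Tet3 had one in ES-EP. By position, 10 of the 20 sites were promoter sites, 6 lay elsewhere in a gene body and 4 in the 10 kb flanks. Of the promoter sites 6 were called in MEL cells only, 1 in ES-EP only and 3 in both, and of the internal sites 1 was called in MEL cells only, 4 in ES-EP only and 1 in both. The flank sites were called in MEL cells only (3 sites) or in ES-EP only (1 site). The same split over all merged sites is not given here, so these counts describe the 20 sites and show no trait particular to the 8 genes.

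**Figure D1:**
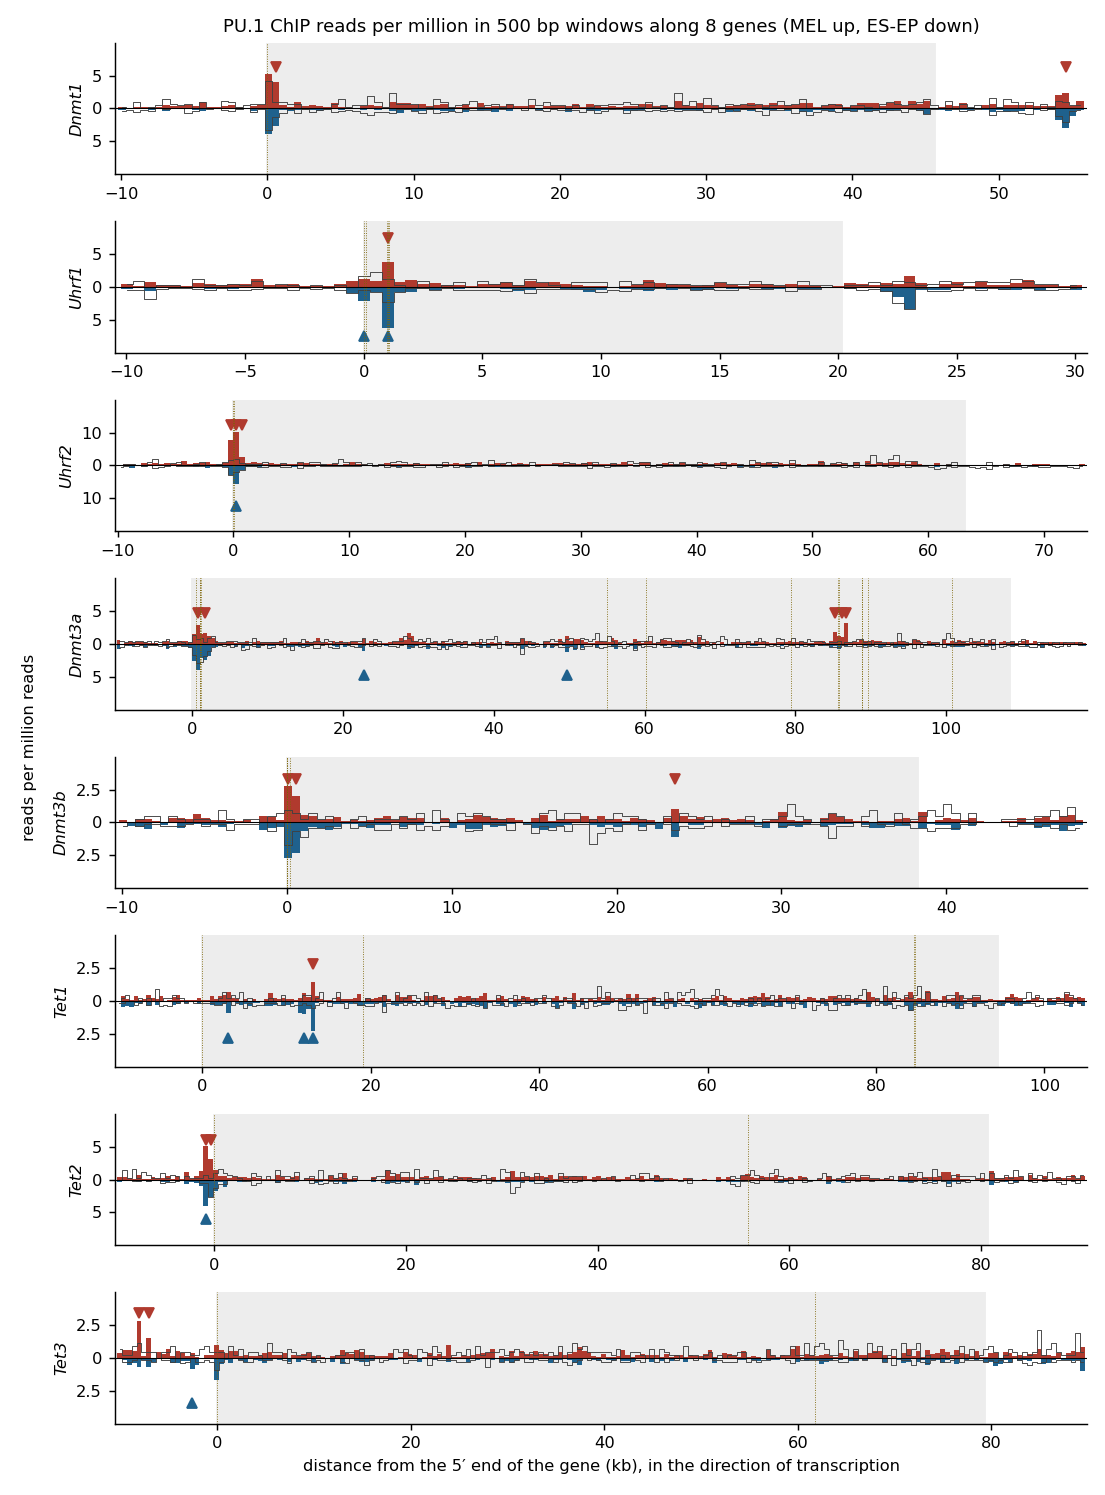
PU.1 ChIP reads per 1000000 reads in 500 bp windows along the 8 genes, with MEL cells (red, upward) and ES-EP (blue, downward) and both preparations summed, against the distance in kb from the 5′ end of the gene in the direction of transcription. The gene body is shaded, dotted lines mark annotated TSSs, the thin black steps are input, and triangles mark the 19 windows called in MEL cells and the 10 called in ES-EP. The highest windows lie at or near the 5′ ends of Dnmt1, Uhrf1, Uhrf2, Dnmt3b and Tet2, while Tet1 has its highest window inside the gene. Dnmt3a and Tet3 are highest at the 5′ end in ES-EP, and in MEL cells Dnmt3a is highest in intron 6 and Tet3 upstream of the gene.

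Sites are numbered along each gene in the direction of transcription, and reads are those whose shifted 5′ end falls in the 500 bp around the summit. The ratio is that of ChIP to input after scaling to depth, with a 95% exact interval that covers counting error only. Since sites were chosen for their ChIP reads, the ratio at a site is a description and carries no p.

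Among the genes of maintenance methylation, Uhrf2 had the site with the most reads. Uhrf2, a relative of Uhrf1 that also binds modified cytosine, had a site 1500 bp wide over its 5′ end (chr19:30104501-30106000), with the summit in the non-coding part of an exon 28 bp upstream of the nearest TSS. It held 36 reads in MEL A, 89 in MEL B, 40 in ES-EP A and 26 in ES-EP B, with 9 reads in the MEL input and 19 in the ES-EP input. MEL B stood highest and ES-EP B lowest, and the cell types overlapped, since MEL A and ES-EP A had about the same number. The ratio was 4.68 in MEL cells (interval 2.39 to 10.5) and 1.94 in ES-EP (1.15 to 3.43). The site was called in both cell types, in MEL cells from each preparation alone and in ES-EP from preparation A alone but not from B. With the grid moved by 250 bp the ES-EP call was lost. The study's qChIP amplicon for this gene lies over this site (chr19:30105007-30105127, plus strand), centred 16 bp from the summit, and its primers are shown because they fix the measured position.
Uhrf2 forward primer: gccatggctccttcctattt
Uhrf2 reverse primer: gcgaggactgacgctcttag

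Uhrf1, the cofactor that recruits Dnmt1, had 2 promoter sites. The stronger, in intron 1 (chr17:56443501-56444000) and 85 bp upstream of the nearest internal TSS, held 10 reads in MEL A, 40 in MEL B, 49 in ES-EP A and 30 in ES-EP B, against 6 and 15 input reads in MEL cells and ES-EP. MEL A stood far below the other 3 preparations, and the groups overlapped because MEL B lay between ES-EP B and ES-EP A. The ratio was 2.81 in MEL cells (1.2 to 8.02) and 2.95 in ES-EP (1.68 to 5.51), and the site was called in both. It was called from MEL B and from ES-EP A alone, and from neither MEL A nor ES-EP B. The other, 243 bp upstream of the first TSS (chr17:56442501-56443000), was called in ES-EP only and held 7 reads in each MEL preparation, 18 in ES-EP A and 9 in ES-EP B, with 3 and 6 input reads. It was not called when reads were left unshifted. Around the summit both ES-EP preparations were higher than both MEL preparations after scaling to depth, by a small margin in ES-EP B. The summit is the first base of the called window, so part of the 500 bp counted lies outside it. The TSS window at chr17:56442744 covers nearly all of the called window. It held 5, 10, 18 and 10 reads in MEL A and B and ES-EP A and B, with 7 and 3 input reads. There MEL B, with fewer reads in all, held as many as ES-EP B, so the separation did not hold.

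Dnmt1, the maintenance methyltransferase, had a promoter site in intron 1, 366 bp downstream of its TSS (chr9:20756501-20757000). It held 29 reads in MEL A, 55 in MEL B, 42 in ES-EP A and 25 in ES-EP B, with 6 reads in the MEL input and 22 in the ES-EP input. The ChIP reads of the cell types overlapped, and the inputs differed more than the ChIP did. The site was called in MEL cells only, with a ratio of 4.72 (2.08 to 13.2), and the ratio in ES-EP was 1.7 (1.04 to 2.9). From MEL B alone it was called and from MEL A alone it was not. Under 3 of 7 alternative settings (the 10 kb input, the moved grid and no shift) it was called in ES-EP too. A second site was in the 3′ flank of Dnmt1 (chr9:20702501-20703000) within the promoter of Eif3g, which encodes a subunit of a translation initiation factor, and held between 10 and 25 reads per preparation.

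Of the genes of de novo methylation, Dnmt3a had 6 of the 20 sites. Around its first TSSs there were 2 sites in very CpG-rich sequence (chr12:3806501-3807000 and chr12:3807501-3808000), both called in MEL cells only. However, 2 of 7 alternatives called the first and 1 of 7 the second in ES-EP too. The first is in intron 1 of a transcript from the TSS at chr12:3806527, and 129 bp upstream of the TSS at chr12:3807030. The second is in intron 1 of the transcript from that later TSS. The first held 8 reads in MEL A, 24 in MEL B, 32 in ES-EP A and 15 in ES-EP B, with 3 reads in the MEL input and 24 in the ES-EP input. ES-EP A had the most reads of the 4 preparations although the site was not called in ES-EP, where the input was as high as the ChIP. Its ratio was 3.6 in MEL cells (1.13 to 18.4) and 1.1 in ES-EP (0.657 to 1.87). The second held 8, 15, 24 and 11 reads in the same order, and 0 input reads in MEL cells against 14 in ES-EP, so that the MEL ratio was at least 2.59 against a floor of 3 input reads, with an exact lower limit of 1.94.

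A further pair of Dnmt3a sites lay in intron 6 on both sides of an internal TSS (chr12:3891728) from which shorter transcripts are annotated. A shorter Dnmt3a protein is known to be made from an internal promoter of this gene. Site 5, 277 bp upstream of that TSS (chr12:3891001-3891500), held 8 reads in MEL A, 26 in MEL B, 4 in ES-EP A and 8 in ES-EP B, with 0 and 6 input reads. In reads per 1000000 (RPM) both MEL preparations were above both ES-EP preparations (1.4 and 3.72 against 0.636 and 1.13). Site 6 (chr12:3892001-3893000), 1107 bp downstream of a neighbouring TSS at chr12:3891744, held 21 reads in MEL A, 17 in MEL B, 3 in ES-EP A and 4 in ES-EP B, with 1 read in the MEL input and 3 in the ES-EP input. Here the groups were apart, with both MEL preparations far above both ES-EP preparations, and the 2 ES-EP preparations were near their input, at a ratio of 1.31 (0.298 to 7.83).
The ratio in MEL cells was 12.8, with a wide interval (2.17 to 519) that comes from the single input read. By library, MEL A1 had 7 reads at site 6, A2 14, B1 2 and B2 15, so that 1 of the 4 MEL libraries had few reads there. The site was called in MEL cells from each preparation alone and under 7 of 7 alternative settings, and in ES-EP under 0 of 7. The qChIP amplicon of the study for Dnmt3a also lies in intron 6 (chr12:3892658-3892786, plus strand), centred 129 bp upstream of the summit of site 6. The paper shows the region near Dnmt3a among loci that its ChIP-Seq data gave as enriched in MEL cells. It also shows qChIP near the marked peaks of these loci, the one near Dnmt3a among them. The paper states that qChIP verified a difference between the cell types at some loci of this kind. The primers and the sequence from site 6 (mm9, chr12:3892746-3893045, plus strand) are shown (the sequence runs past the called windows but stays within the 500 bp counted) because this was the only one of the 20 sites more than 5-fold higher in 1 cell type, and the capitals mark the letters GAGGAA on either strand, the purine core that PU.1 is known to prefer.
Dnmt3a forward primer: tccagggcttagagaccaaatgct
Dnmt3a reverse primer: tagaatactcagcctggcagcaca
Dnmt3a intron 6 site: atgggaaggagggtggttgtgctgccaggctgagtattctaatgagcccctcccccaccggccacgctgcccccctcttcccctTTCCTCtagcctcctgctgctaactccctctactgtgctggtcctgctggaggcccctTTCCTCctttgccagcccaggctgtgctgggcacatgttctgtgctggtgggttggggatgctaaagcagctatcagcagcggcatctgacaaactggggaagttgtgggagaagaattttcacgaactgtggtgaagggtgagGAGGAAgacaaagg

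**Figure D2:**
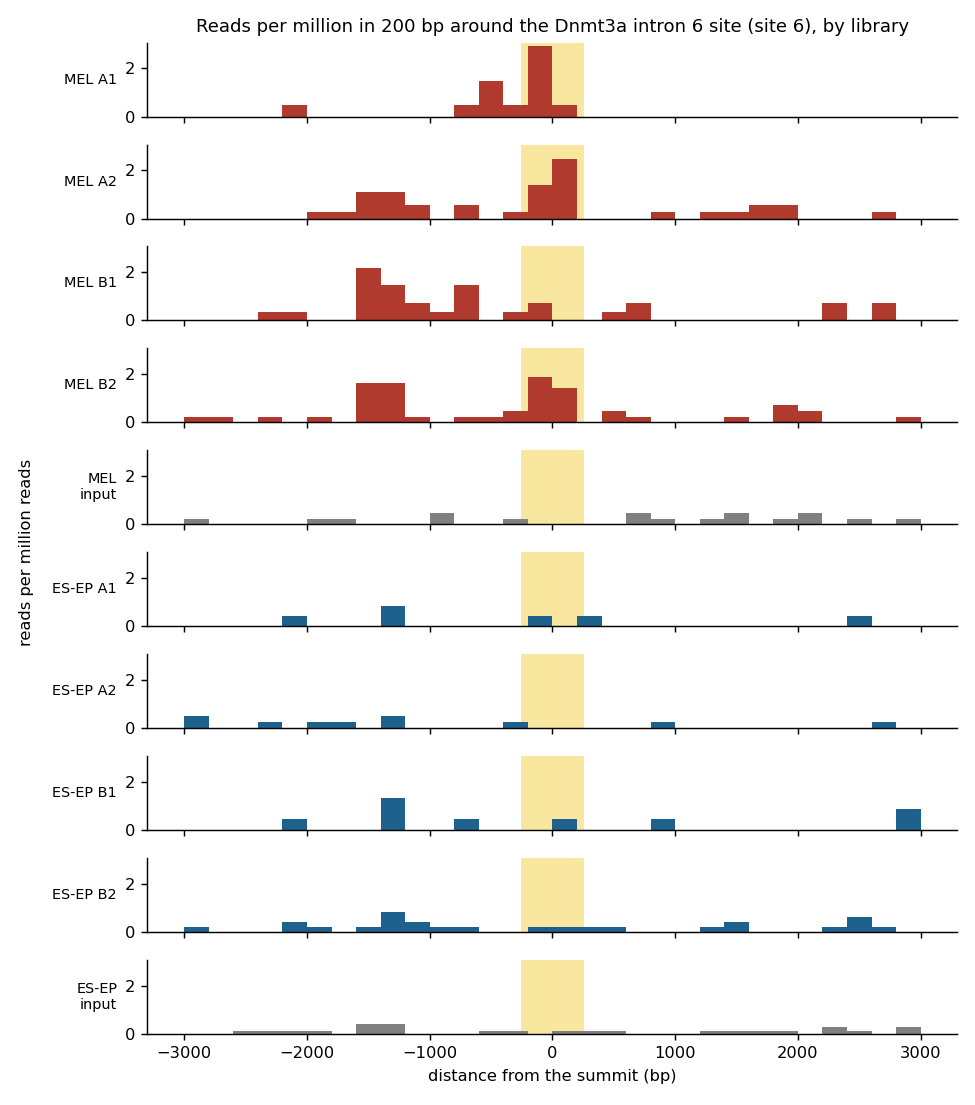
RPM in bins of 200 bp within 3000 bp of the summit of the Dnmt3a intron 6 site (site 6), for each ChIP library and for the input of each cell type. The shaded band is the 500 bp in which reads were counted. MEL A1, A2 and B2 are high in the band and MEL B1 is not (2 reads), all 4 ES-EP libraries are near their input, and site 5 lies farther to the left, where MEL A1 has 0 reads.

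The other Dnmt3a sites were weak. Site 3, in intron 1 (chr12:3828501-3829000), was called in ES-EP only with 4 and 5 reads in MEL A and B and 7 in each ES-EP preparation. Site 4, in intron 3 (chr12:3855501-3856000), was called in ES-EP only with 7, 11, 10 and 7 reads in MEL A and B and ES-EP A and B. Neither was called from either ES-EP preparation alone, and each was called under 3 of 7 alternatives.

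Dnmt3b, the other de novo enzyme, had a promoter site in the non-coding part of an exon, 98 bp downstream of the nearest TSS (chr2:153475001-153476000). It held 19 reads in MEL A, 31 in MEL B, 28 in ES-EP A and 28 in ES-EP B, with 5 and 17 input reads in MEL cells and ES-EP. The 4 preparations were close to each other, and the call in MEL cells only stood beside a ratio of 3.37 in MEL cells (1.35 to 10.8) and of 1.84 in ES-EP (1.06 to 3.38), where 2 of 7 alternatives called it. An internal site in intron 12 (chr2:153498501-153499000), called in MEL cells only, held 11 reads in MEL A, 2 in MEL B, 9 in ES-EP A and 6 in ES-EP B. It was called from MEL A alone and not from MEL B alone, and the MEL preparations lay on both sides of the ES-EP preparations.

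The 3 Tet genes differed in where their sites lay. Tet2 had a single site, 897 bp upstream of its first TSS, and it was called in both cell types. It held 24 reads in MEL A, 40 in MEL B, 33 in ES-EP A and 20 in ES-EP B, with 3 reads in the MEL input and 4 in the ES-EP input. The cell types overlapped and all 4 preparations were above input, with ratios of 6.01, 8.16, 9.83 and 5.28. With so few input reads the lower limits of their intervals were 1.82, 2.6, 3.5 and 1.77. The summed ratio was 7.2 in MEL cells (2.35 to 35.8) and 7.42 in ES-EP (2.73 to 28.2). In MEL cells the call was made from each preparation alone, and in ES-EP from A alone and not from B. Of the 10 promoter sites this was the one with the lowest GC content, 47%, where the others had between 56.8% and 82.6%.

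Tet1 had 3 sites in its first intron, none within 2 kb of a TSS. Its 5′ TSS window held 1 read in MEL A, 0 in MEL B, 1 in ES-EP A and 0 in ES-EP B. Site 3 (chr10:62348501-62349000) was called in both cell types and held 8 reads in MEL A, 14 in MEL B, 19 in ES-EP A and 13 in ES-EP B, with 0 reads in the MEL input and 6 in the ES-EP input. The groups overlapped at this site, and the ratio was 2.98 in ES-EP (1.23 to 8.73) and at least 2.47 in MEL cells against the floor of 3 input reads, with an exact lower limit of 1.85. Sites 1 and 2 (chr10:62358501-62359000 and chr10:62349501-62350000) were called in ES-EP only, with 3, 7, 10 and 3 reads and with 0, 6, 4 and 10 reads in MEL A and B and ES-EP A and B. At both sites the preparations of a cell type differed from each other more than the cell types did.

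Tet3 had all of its 3 sites upstream of the gene. Site 1, 7982 bp upstream of the TSS (chr6:83399501-83400000), held 14 reads in MEL A, 22 in MEL B, 6 in ES-EP A and 3 in ES-EP B, with 5 reads in the MEL input and 0 in the ES-EP input. Site 2, 6982 bp upstream (chr6:83398501-83399000), held 11, 7, 2 and 6 reads in the same order, with 1 and 2 input reads. Both were called in MEL cells only, site 1 from MEL B alone but not from MEL A, and site 2 from neither preparation alone and under 3 of 7 alternatives. At both the MEL preparations were above the ES-EP preparations in RPM. At site 1 the input was also higher in MEL cells, and the ratio to input was 2.43 in MEL cells (0.95 to 7.93) and at least 1.68 in ES-EP against the floor, with an exact lower limit of 1.1. Site 3, 2582 bp upstream (chr6:83394001-83394500), was called in ES-EP only with 4, 1, 9 and 2 reads, mostly from ES-EP A.

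TSS windows of 500 bp, whose place does not depend on the reads, were tested against input in each preparation alone (two-sided exact binomial test, adjusted over all TSS windows). The 8 genes have 33 distinct TSSs, and neighbouring windows share reads. In MEL A, 1 of 32 windows tested was above input, in MEL B 6 of 32, in ES-EP A 7 of 33 and in ES-EP B 0 of 33. Over all TSS windows the share above input was 2.76%, 17%, 13.4% and 3.99% in the same order. The windows belonged to Uhrf2 in MEL A, to Uhrf1, Uhrf2 and Dnmt3b in MEL B, and to Uhrf1 and Uhrf2 in ES-EP A. The exact test needs many reads at this depth, so that a promoter outside these calls is not shown to lack PU.1.

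In the window with the most reads, Uhrf2 held 40 reads in MEL A, 93 in MEL B, 44 in ES-EP A and 25 in ES-EP B, and the ratios to input were 3.34, 6.33, 3.28 and 1.65. The adjusted p of the exact binomial test was 0.0199, 3.14e-09, 0.000298 and 0.664, so that both MEL preparations and 1 of the ES-EP preparations passed. Uhrf1 held 12, 38, 53 and 30 reads in the same order of preparations, with ratios of 1.8, 4.65, 3.51 and 1.76. Here MEL B (adjusted p = 0.00262, exact binomial test) and ES-EP A (1.71e-05) passed. Dnmt3b, with 17, 28, 25 and 26 reads, passed in MEL B alone, at a ratio of 3.43 (adjusted p = 0.0398, exact binomial test). The window over the Dnmt1 TSS held 17, 38, 18 and 12 reads but 17 reads in the MEL input and 21 in the ES-EP input, and its ratios of 0.751, 1.37, 1.02 and 0.603 stayed about 1. The 500 bp counted for the Dnmt1 site in intron 1, described above, overlap this window in part and share reads with it. The remaining windows passed in 0 preparations. Dnmt3a had 12, 19, 32 and 17 reads, Tet2 8, 18, 15 and 13, and Tet3 6, 10, 17 and 8. Tet1 had the fewest, 2, 2, 0 and 6 in its highest window, which lies at an internal TSS (chr10:62277287) with 2 and 1 input reads. The window at the 5′ TSS of Tet1 held 1, 0, 1 and 0 reads. The window shown for each gene was chosen by its ChIP reads, although the places of all windows tested were not.

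**Figure D3:**
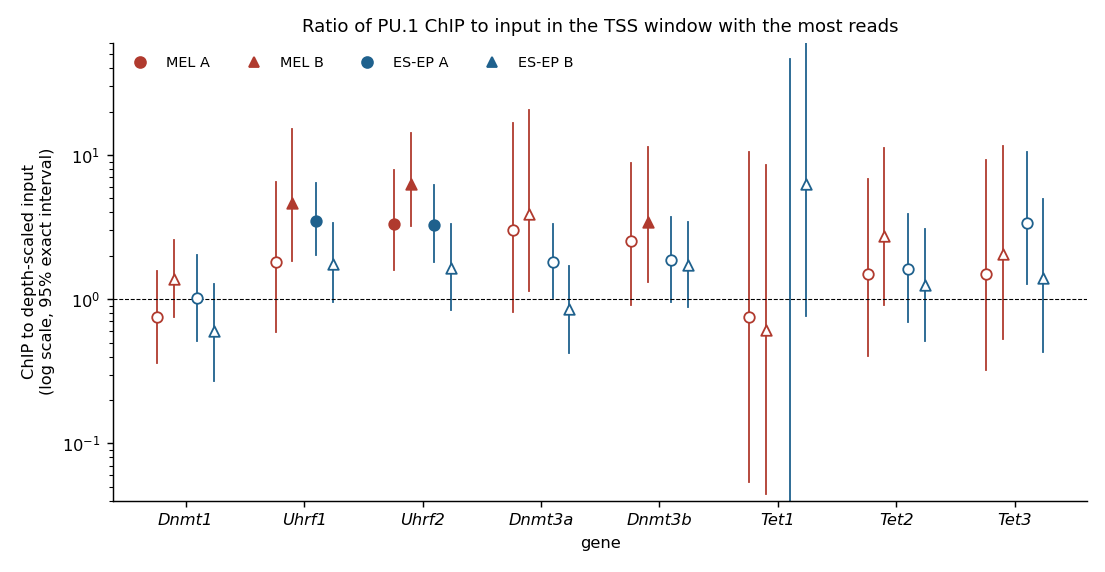
Ratio of ChIP reads to depth-scaled input reads (log axis) in the TSS window with the most reads of each gene, for the 4 preparations, with 95% exact intervals that are clipped at the axis for Tet1. Filled points passed the exact binomial test after adjustment over all TSS windows. Uhrf2 passed in 3 preparations, Uhrf1 in 2 and Dnmt3b in 1, and the Tet1 ratio of 0 in ES-EP A lies below the axis. The Tet1 window is at an internal TSS and not at the 5′ end of the gene.

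The comparison of MEL cells with ES-EP addressed whether PU.1 occupancy at these genes differs between these cell populations. Leukemic and untransformed erythroid cells are each represented by 1 population. An effect of leukemia therefore cannot be told apart from the line, the GATA-1/ER fusion of MEL cells and the medium. With limma (voom) over the 4 preparations, 0 of the 20 sites passed an adjusted p of 0.05, where 1.6% of all 28748 merged sites did. At an unadjusted p below 0.05 there were 2 sites, Dnmt3a site 6 and Tet3 site 1, against 17.1% of all merged sites. Limma on log2 of RPM plus 0.5 called 1, Dnmt3a site 6, against 4.87%. In MEL cells relative to ES-EP the log2 fold change of Dnmt3a site 6 was 2.37 ± 0.80 (SE, n = 2 preparations per cell type, limma adjusted p = 0.0879), and the depth-scaled reads were 5.73 times higher. Over 11 alternative settings its log2 fold change ranged from 1.78 to 2.66 and its adjusted p from 0.0114 to 0.391. For Tet3 site 1 the log2 fold change was 2.04 ± 0.74 (adjusted p = 0.12), at 4.22 times the depth-scaled reads, with adjusted p from 0.0273 to 0.408 over the alternatives. Both sites were higher in all 4 pairs of a MEL and an ES-EP preparation. Both were called in MEL cells only, so they entered the set through the cell type where they were higher. Since the same reads chose the sites, the comparison is a description and no independent support for a difference.

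By the fold rule of the study, 1 of the 20 sites was more than 5-fold higher in MEL cells, Dnmt3a site 6, and 0 were more than 5-fold higher in ES-EP, against 5.7% and 3.27% of all merged sites. The other 19 were within 5-fold. Both MEL preparations exceeded both ES-EP preparations in RPM at 4 sites (Dnmt3a 5 and 6, Tet3 1 and 2), the reverse held at 2 sites (Uhrf1 1 and Dnmt3a 3), and 14 overlapped. The first 4 were called in MEL cells only and the other 2 in ES-EP only, so the calls had chosen them for the side on which they were higher. At Uhrf1 1 the order held around the summit and not in the overlapping TSS window described above. Over all merged sites 24.5% had both MEL preparations higher and 24.2% both ES-EP preparations. The 20 sites were not above this background in either direction. The median log2 fold change over the 20 sites was -0.27, and it was -0.14 over all merged sites. Uhrf2, with a log2 fold change of 0.87 ± 0.74, and Uhrf1 site 2, with -0.86 ± 0.70, did not differ beyond the spread between preparations (limma adjusted p = 0.525 and 0.505).

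**Figure D4:**
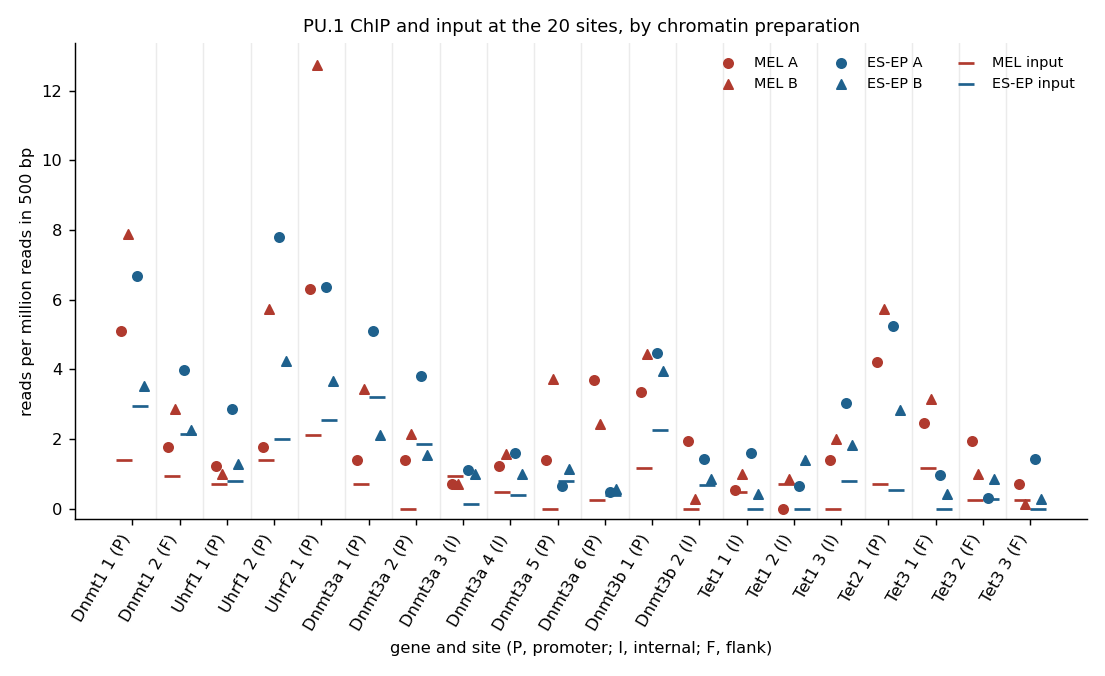
Reads per 1000000 reads (RPM) in the 500 bp around the summit of the 20 sites, with preparation A (circles) and B (triangles) of MEL cells (red) and ES-EP (blue) and the input of each cell type (dashes). The preparations of both cell types overlap at 14 sites, and MEL B at the Uhrf2 promoter is the highest point. At Dnmt3a sites 5 and 6 and Tet3 sites 1 and 2 both red points lie above both blue points.

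**Figure D5:**
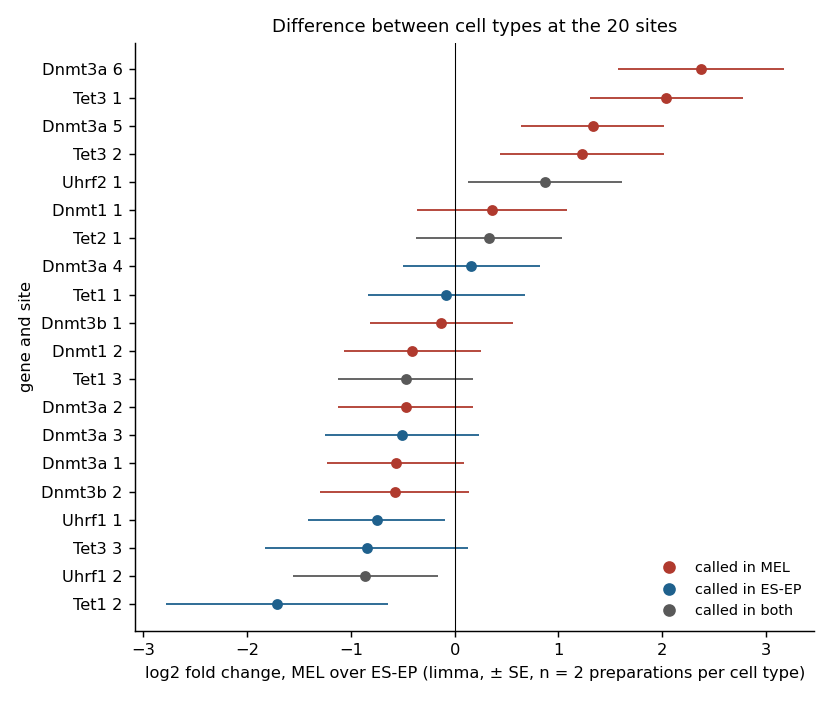
Log2 fold change of MEL cells over ES-EP at the 20 sites, ordered by size, from limma over 2 preparations per cell type with its SE as bars. Colours give the cell type in which a site was called. Dnmt3a site 6 (2.37) and Tet3 site 1 (2.04) are farthest to the right and Tet1 site 2 (-1.71) farthest to the left, and 0 of the 20 passed the adjusted threshold.

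In the TSS windows, 0 of those of the 8 genes passed limma, where 3 of 29480 windows of the genome did (0.0102%, 1 higher in MEL cells and 2 lower). The count over the genome depends on the scaling. The median log2 fold change of these 29480 windows, which held at least 10 reads, was -0.375 with total reads and -0.002 with median-ratio scaling. Under median-ratio scaling 317 windows were higher and 168 lower in MEL cells. Both Uhrf2 windows, which overlap, were then among those higher in MEL cells (1.08% of the windows tested), and limma on log2 of RPM plus 0.5 called 0 windows of the 8 genes.

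A call in 1 cell type did not mean that the other lacked reads. Of the 14 sites called in MEL cells, 4 were also called from MEL A alone, 12 from MEL B alone and 3 from each of them (Uhrf2, Dnmt3a site 6 and Tet2). Of the 10 sites called in ES-EP, 7 were also called from ES-EP A alone, 1 from ES-EP B alone (Tet1 site 2) and 0 from both. Under all 7 alternative settings 3 of the 14 sites called in MEL cells and 0 of the 10 called in ES-EP were called again. The share of all called sites of the genome that were called again in these ways is not given here. These counts of repeated calls therefore describe the 20 sites and show no trait particular to these genes. In RPM MEL B was above MEL A at 15 of the 20 sites and ES-EP A above ES-EP B at 16. The same held over the genome, at 66.1% and 78.6% of all merged sites.

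The 10 promoter sites had a median GC content of 68.3% (47% to 82.6%) and a median of 42 CpG in 500 bp (7 to 82), against 66.4% and 44 at all merged sites within 2 kb of a TSS. The 6 internal sites had medians of 51.1% (41.2% to 61.4%) and 3.5 (2 to 32), the 4 flank sites of 50.7% (43.4% to 67.8%) and 5 (4 to 41), and all merged sites away from TSSs of 45.6% and 5. The medians of the promoter sites were higher and the ranges overlapped. Members were sorted by the TSSs of their own gene, and all merged sites by any protein-coding TSS. Dnmt1 site 2, a flank site in the Eif3g promoter, sets the top of both flank ranges (67.8% and 41). Among all merged sites it counts as near a TSS. GAGGAAGT, an 8-letter form of the PU.1 site, was searched on both strands and found in 0 of the 10 promoter sites, 3 of the 6 internal and 2 of the 4 flank sites. All merged sites held it in 10.2% near TSSs and in 31.7% elsewhere. Among the members it lay at Dnmt3a site 3, Dnmt3b site 2, Tet1 site 1 and Tet3 sites 1 and 2, and of these 5 sites 2 were higher in both MEL preparations, 1 (Dnmt3a site 3) was higher in both ES-EP preparations and the other two overlapped. GAGGAA alone, which the longer word contains, was in 5 promoter, 3 internal and 4 flank sites, against 45.2% and 66.8% of all merged sites near and away from TSSs. Dnmt1 site 2 is counted among the 4 flank sites here and for the longer word, which it did not hold. The 40 bases around each 8-letter word are shown to let the contexts be compared (mm9), each in the direction of the word, which is in capitals.
Dnmt3a site 3 (chr12:3828726-3828765, minus strand): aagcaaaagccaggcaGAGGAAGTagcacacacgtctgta
Dnmt3b site 2 (chr2:153498692-153498731, plus strand): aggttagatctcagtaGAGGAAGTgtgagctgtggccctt
Tet1 site 1 (chr10:62358757-62358796, plus strand): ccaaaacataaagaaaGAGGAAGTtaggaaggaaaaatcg
Tet1 site 1 (chr10:62358827-62358866, plus strand): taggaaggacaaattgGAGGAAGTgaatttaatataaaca
Tet3 site 1 (chr6:83399582-83399621, minus strand): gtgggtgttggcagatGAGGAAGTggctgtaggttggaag
Tet3 site 2 (chr6:83398654-83398693, plus strand): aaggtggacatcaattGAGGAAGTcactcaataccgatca

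Of the other words, CCGGAAGT, which other Ets factors are known to bind, was in the Dnmt1 promoter site (chr9:20756760-20756799, plus strand) and in 7.71% of all merged sites near TSSs. TTCCCGCC, a form of the E2F site, was in the upstream Uhrf1 site (chr17:56442696-56442735, plus strand) and in 6.48%. GATAAG, a form of the GATA site, was in 0 promoter sites, 0 flank sites and 2 internal sites, Dnmt3a site 3 and Tet1 site 3. All merged sites held it in 7.38% near TSSs and in 21.4% away from them. A word in a window is a description and no evidence that a factor bound there. The Dnmt1 and Uhrf1 words are shown for comparison.
Dnmt1 site 1 (chr9:20756760-20756799, plus strand): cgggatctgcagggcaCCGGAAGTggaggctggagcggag
Uhrf1 site 1 (chr17:56442696-56442735, plus strand): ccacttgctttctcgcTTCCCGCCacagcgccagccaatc

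Other genes of DNA methylation were examined as a list of 30, grouped as maintenance and cofactors, readers, demethylation and base excision, and cofactors and partners of the Tet enzymes. A promoter site was called at 20 of them in MEL cells (66.7%), at 10 in ES-EP (33.3%) and at 10 in both, beside the 38.7%, 22.9% and 18.6% of all genes given above. Over their 50 sites 0 passed limma, where 1.6% of all merged sites did. None was over 5-fold different, against 5.7% of all merged sites higher in MEL cells and 3.27% higher in ES-EP. Among listed genes with at least 1 MEL input read in the TSS window, the highest ratios in MEL cells were those of Gadd45a (8 and 34 reads in A and B, ratio 14.2), a stress-induced gene, Pcna (7 and 20 reads, 9.11), the replication clamp, and Lig3 (7 and 17 reads, 8.09), a DNA ligase. Each rested on 1 input read, and the lower bounds of the intervals were 2.41, 1.5 and 1.32. Of the 4 genes with 0 MEL input reads, which have no ratio, Zbtb33, a methyl-CpG reader, had the most ChIP reads (6 and 16, exact lower limit 1.85). In ES-EP Gadd45a (51 and 28 reads, 3.68, interval 2 to 7.43), Tdg (61 and 39 reads, 3.5, interval 2.05 to 6.35), the glycosylase that removes oxidised methylcytosine, and Zbtb33 (51 and 24 reads, 2.47, interval 1.44 to 4.46) were highest. The readers had a promoter site at 6 of 8 genes in MEL cells and at 2 of 8 in ES-EP. In the same order, the group of maintenance and cofactors had one at 5 and 4 of 7. The group of demethylation and base excision had one at 5 and 2 of 10, and the Tet cofactors and partners at 4 and 2 of 5.

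By the mean absolute difference of log2 RPM over the 4 preparations, the promoter sites most like that of Uhrf2 were those of Mta1 (0.0641; 37, 87, 39 and 23 reads in MEL A and B and ES-EP A and B), Dennd2c (0.0797) and Notch2 (0.158). Those most like Uhrf1 site 2 were at Chrac1 (0.0427; 10, 41, 51 and 32 reads), Stau1 (0.0454) and the promoter shared by Stk4 and Tomm34 (0.0559). With 4 preparations such likeness describes level and spread only.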

How the data were processed

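The authors made 11 libraries, read them on an Illumina GAII and used ELAND and mm9 for alignment, keeping reads with a single place and up to 2 mismatches. The version of ELAND is not given in the sources used here. The deposited files hold aligned reads only, with position, strand and sequence, so all counts of reads were made from their lines. Starts are counted from 1, which was checked on 2000 reads per library against the mm9 genome.

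Reads were moved by 70 bp (MEL cells) or 65 bp (ES-EP) toward the fragment centre. For grid windows of 500 bp on chromosomes 1-19 and X, the Poisson mean was whichever was highest of the genome mean and the scaled input in 500 bp and in 1, 5 and 10 kb, and p-values were adjusted by Benjamini-Hochberg over 5277976 windows. Reads in 500 bp around a summit, the top of a 200 bp running sum, were compared between cell types with limma 3.58.1 (voom, R 4.3.3) over 28748 merged sites and over TSS windows with at least 10 reads. Intervals of ratios are exact (Clopper-Pearson, 95%), with a floor of 3 reads where the input held 0. The A preparations of both cell types deviated with a correlation of -0.0451, and no label ties their letters, so letters were not paired. Nothing says that preparations came from separate cultures. The limma p-values measure the spread between preparations only, and the Poisson and exact binomial p-values measure counting error of reads only. Genes and TSSs were GENCODE annotation of the same assembly. Steps were tested on simulated data.

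The 8 genes, the list of 30 genes and the words searched were chosen with earlier results of these data known. All 8 genes are named, with every site over 5-fold different, the primer positions and the 3 listed genes with the highest TSS ratio per cell type, and Zbtb33 in MEL cells and the sites with an unadjusted p below 0.05 were added after their values were seen. The sequence of the Tet2 site is not reported here.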

Additional observations from a re-analysis of the deposited data

Results flagged for a closer look

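Over 40 sets of 4 libraries (20 sites in each cell type), 4 had a library with a gap above the 95% critical value of Dixon's test. The gap is the distance to the nearest other library divided by the range of the depth-scaled reads (RPM, reads per 1000000). Chance exceeds this value in about 1 of 20 sets of 4 independent values. The libraries of a set came from 2 preparations and are not independent, so this rate is a rough guide only. MEL B1 was low at Dnmt3a site 6 (gap 0.860, 2 reads, 0.73 RPM against 3.41 to 3.84 in the other libraries). ES-EP A2 was high at Uhrf1 site 2 (gap 0.837, 10.43 RPM against 3.40 to 4.55). At Tet1, MEL B1 was high at site 1 (gap 0.942, 5 reads) and MEL B2 held all 6 MEL reads at site 2 (gap 1.000).

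At 6 positions, 1 of 20 sites and 5 of 31 TSS windows with input reads in both cell types, both preparations of one cell type were above input and both of the other below it, and this difference was not tested. ES-EP was the cell type above input at the site and at 4 of the windows, and MEL cells at 1. The site, Dnmt3a site 3, was called in ES-EP only, so it entered the set through the cell type in which it was above input. Over the genome ES-EP was above input and MEL cells below it at 3.01% of merged sites and 6.94% of TSS windows, and the reverse held at 5.81% and 6.43%. In the order MEL A and B, then ES-EP A and B, the ratio of ChIP to input at Dnmt3a site 3 was 0.751, 0.765, 8.34 and 7.39, with 1 input read in ES-EP and 4 in MEL cells. It was 0.536, 0.875, 7.15 and 3.52 in the Uhrf1 TSS window at chr17:56442744, and 0.417, 0.748, 8.94 and 3.69 in the window at chr17:56442823, which shares most of its reads. These windows held 7 and 9 reads in the MEL input against 3 and 2 in the ES-EP input, and their ChIP reads did not pass limma (adjusted p = 0.808 and 0.888). A 3′ internal TSS of Dnmt3a (chr12:3906816) had 0.751, 0.408, 2.38 and 4.22, with 3 and 1 input reads, and an internal TSS of Tet3 (chr6:83329896) had 0, 0.306, 1.19 and 1.06, with 4 and 1. At the Dnmt3a TSS chr12:3894824 the ratios were 1, 1.02, 0 and 0, with 3 and 2 input reads and 4 and 5 ChIP reads in MEL A and B, so that MEL cells were above input by a very small margin.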

How the results depend on the processing

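Which sites were called depended on the preparations. From 1 MEL preparation alone the genome held 8361 to 16776 sites (21412 from both) and the 8 genes 5 to 13 (14 from both), with a promoter site at 3 to 6 genes, the lower value being that without MEL B, while the share of all genes with one was 12.4% without MEL B and 37.6% without MEL A. From 1 ES-EP preparation alone the genome held 5293 to 14128 sites (16100 from both) and the 8 genes 1 to 9 (10 from both), with a promoter site at 0 to 5 genes, the lower value being that without ES-EP A, while the share of all genes was 8.85% without ES-EP A and 22.3% without ES-EP B. With the expected reads from 10 kb of input and the genome mean only, which ignores input at the site itself, MEL cells had 36174 sites and ES-EP 38140. The 8 genes then had 17 sites in MEL cells and 20 in ES-EP, with a promoter site at 6 and 7 genes. A threshold of 0.01, 1 read per position, a moved grid and no shift kept these counts within 1.5 times but not the same sites. The moved grid ended the ES-EP calls at Uhrf2, Dnmt3a site 3 and Tet1 site 1 and added Dnmt1 site 1 and Dnmt3b site 1, and no shift ended Dnmt3a site 3 and Uhrf1 site 1 and added Dnmt1 site 1. The stricter threshold ended Dnmt3a site 4, Tet1 site 2 and Tet3 site 3, and 1 read per position ended the first and last of these. Among the MEL calls, Dnmt3b site 2 and Tet3 site 2 were lost with the moved grid, and both of them and Dnmt1 site 2 with the stricter threshold.

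Between cell types, limma called 461 merged sites and 3 TSS windows. It called 1401 and 50 on log2 of RPM plus 0.5, 2454 and 485 with median-ratio scaling, 155 and 8 with at least 20 reads, and 2840 and 182 when every library stood for a sample, although libraries of 1 preparation are not independent. With no filter it called 0 TSS windows. Relative to the median autosome, the ratio of MEL to ES-EP input was 1.1792 on chr19 (Uhrf2), 1.3342 on chr3 (Tet2) and 0.8856 on chr2 (Dnmt3b). With the ratio of each chromosome taken off, limma called 387 merged sites and 2 TSS windows. The log2 fold change was then 0.63 at Uhrf2 site 1 (0.87 before), -0.08 at Tet2 site 1 (0.33 before) and 0.05 at Dnmt3b site 1 (-0.13 before). Leaving out 1 preparation gave 0 to 110 merged sites (0 without MEL A or MEL B, 24 without ES-EP A, 110 without ES-EP B) and 0 TSS windows. With the letter as a replicate block it called 135 merged sites and 0 TSS windows, and the block changed no call at the 8 genes. Among the 20 sites, 1 passed on log2 of RPM (Dnmt3a site 6), 2 under median-ratio scaling and 2 when libraries stood for samples (Dnmt3a site 6 and Tet3 site 1), and 0 in the other alternatives. Median-ratio scaling called 8.54% of all merged sites and libraries as samples 9.88%, so that 2 of 20 is near the background. Of their 219 log2 fold changes under alternatives 16 changed sign, none of them past the threshold. Median-ratio scaling also called 2 TSS windows, those of Uhrf2.

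In windows of 1000 bp, 1849 TSS windows were above input in MEL A (1207 in 500 bp), and 5 of the 8 genes had one in MEL B (3 in 500 bp), where the share of all TSS windows also rose, to 24.6% from 17%. With both preparations summed MEL cells had 4859 windows above input (11.1%) and ES-EP 4157 (9.45%), and the 8 genes 3 of 32 and 6 of 33 windows, at 2 genes in each. The causes were not tested. With 0 to 9 MEL input reads and 0 to 24 ES-EP input reads at a site, the intervals of the ratios are wide, and a small difference between ChIP and input may not be detectable at this depth.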
